A study of Rattus norvegicus with 12 samples.

Results

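The nuclear genes for subunits of oxidative phosphorylation were measured in cultured small hepatocytes of the rat and in mature hepatocytes. They were taken as every gene on the array whose name in the array files starts with Nduf followed by a, b, c, s or v and a digit, is Sdha, Sdhb, Sdhc or Sdhd, starts with Uqcr or Atp5, or starts with Cox and the digit of a subunit from 4 to 8 with the letter a, b or c. This gave 80 genes on 107 probes, of 35906 gene names on 45598 probes in all. Complex I had 34 of them, complex II 4, complex III 8, complex IV 16 and complex V 15. The other 3 carry such a name without being a subunit: Dmac2 and Dmac2l (listed in the files as Atp5sl and Atp5s) and the pseudogene Cox6c-ps1. Counts over 76 or 75 genes include them.

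Each of the 12 arrays held the Cy3-labelled total RNA of 1 sample, with 3 arrays in each of 4 groups, all from livers of F344 rats of the dipeptidylpeptidase IV positive strain. Small hepatocytes, which are hepatocytic progenitor cells, were enriched by magnetic sorting of CD44-positive cells at day 9 of culture, expanded on Matrigel and used at passage 2, in serum-free medium with 10 ng/mL EGF and 10 mM nicotinamide. For the last 3 h they had been kept on 1 of 3 coatings: laminin-111 in the LN111 group, laminin-511 in the LN511 group, or Matrigel, a basement membrane extract, in the Mat group. Mature hepatocytes freshly isolated from livers (MH) were the control. Each cultured group thus differed from MH in cell type, sorting, passage and medium together, and these cannot be told apart. Whether the samples of a group stem from different animals or cultures is not given in the labels, and the spread behind each p-value is that of these samples, which may be technical.

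Oxidative phosphorylation takes place in the inner mitochondrial membrane. Complex I (NADH dehydrogenase) and complex II (succinate dehydrogenase) pass electrons to coenzyme Q, complex III hands them to cytochrome c, and complex IV (cytochrome c oxidase) hands them to oxygen. Complexes I, III and IV pump protons, and complex V (ATP synthase) uses the proton gradient to make ATP. Most subunits are encoded in the nucleus, while a few core subunits come from the mitochondrial chromosome, and the adult liver is rich in mitochondria.

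Levels are the log2 processed signal of a probe minus the 75th percentile of its array, and a gene was called at a limma p-value under 0.05 after Benjamini-Hochberg adjustment over all genes tested. The 75th percentiles were 1340 to 2150 on LN111, 1130 to 1370 on LN511, 1920 to 3090 on Mat and 757 to 961 in MH, and 52.2% to 62.7% of spots were well above background. The summed levels of cell type marker lists, given as the log2 of the sum, differed between the cultured cells and MH. The sum of 8 hepatocyte genes was 7.44 to 8.89 on the cultured arrays, against 9.91 to 10.18 in MH, with 6 of the 8 above background on all 9 cultured arrays and 1 on none. For 6 biliary and progenitor genes it was 3.71 to 6.33 on the cultured arrays, against -2.24 to -2.14 in MH. These genes include Cd44, the marker by which the cultured cells had been sorted. Its means were 2.83, 2.60 and 2.78 on LN111, LN511 and Mat, against -6.21 in MH. For 6 macrophage genes the sum was -2.78 to -0.26 on the cultured arrays, against 3.91 to 4.10 in MH. For 6 endothelial genes it was -3.84 to -0.85 on the cultured arrays, against 3.13 to 3.26 in MH. For 6 stellate cell and fibroblast genes it was 5.49 to 6.29 on LN111, 0.98 to 3.10 on LN511 and 4.15 to 4.82 on Mat, against 1.04 to 1.72 in MH. For 3 mesothelial genes it was 4.16 to 6.08 on the cultured arrays, against 1.07 to 1.25 in MH. In MH this was nearly all Krt8, with a mean of 1.11, against -5.25 for Msln and -7.61 for Wt1. Krt8 was also the largest by mean on LN111 (3.79), LN511 (5.22) and Mat (4.53), so the sum does not read mesothelium alone. For 4 erythroid genes the sum was -1.60 to -0.76 on the cultured arrays, against 0.61 to 1.20 in MH. For 4 lymphocyte and neutrophil genes it was -5.83 to -0.68 on the cultured arrays, against -2.86 to -2.39 in MH. Of the macrophage genes 2, of the endothelial genes 3 and of the erythroid genes 3 were above background on no cultured array, and of the biliary and progenitor genes 5 on no MH array. Fewer cells of a type and less RNA per cell cannot be told apart in such samples, and the part of these shifts in the results below was not tested.

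The subunit genes were lower in the cultured cells as a body. Of 76 genes that passed the filter on dim probes, 71 fell and 1 rose in the cultured cells (the mean of LN111, LN511 and Mat) against MH. Over all 18952 genes tested, 72.8% were called in this comparison, 42% lower and 30.8% higher, so a call by itself was common, and the count of 71 is read against the 42%. The median log2 difference was -1.96 over the 76 genes and -0.18 over all genes. The 71 genes were 1.78-fold to 7.12-fold lower, with a median of 3.94-fold, and 69 of them lay between 2-fold and 8-fold. A log2 difference of -1 or below was found for 69 of the 76 genes, against 28.2% of all genes, and one of -2 or below for 33, against 13.5%. For 71 of the 76 genes all 9 cultured arrays lay below all 3 MH arrays, as they did for 35.3% of all genes. Both counts of 71 include Cox8b, which passed the filter through MH alone and was not above background on any cultured array. The genes not called were Ndufa10, Ndufc1, Cox7a2l and Cox6c-ps1, and the genes not tested for want of signal were Ndufs4, Ndufa4l2, Cox7b2 and Cox8c.

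The size of this difference rested on the scaling of the arrays. With quantile scaling the median was -0.90 for the subunit genes and 0.18 for all genes. There 64 genes fell and 2 rose, and 14088 of all 18952 genes were called. With no scaling the medians were -0.92 and 0.86, 56 fell and 3 rose, and 13948 of all genes were called. Relative to the median of all genes, the subunit genes stood at -1.78 with the 75th percentile, -1.08 with quantile scaling and -1.48 with normexp background correction. Leaving out the scaling cannot change this gap, since it shifts all genes of an array alike. Of all called genes, 42.3% were higher in the cultured cells with the 75th percentile, 56.1% with quantile scaling, 78.1% with none and 26.7% with normexp background correction. The rest of the called genes were lower, and the counts of subunit genes are read against these shares.

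Each coating was also set against MH by itself; these 3 comparisons share the MH arrays. On LN111, 71 of 76 genes fell and 1 rose, with a median of -1.91 (66.7% of all genes called, 39.8% lower and 26.9% higher). On LN511, 71 fell and 1 rose, with a median of -1.87 (67.6% called, 36.5% lower and 31.1% higher). On Mat, 71 fell and 1 rose, with a median of -1.96 (67.3% called, 41% lower and 26.2% higher). With no scaling between arrays, 13 fell and 5 rose on Mat. In that setting 14293 of all 18952 genes were called, 86.8% of them higher, and the median of all genes was 1.34. The 3 MH arrays shared a slide with Mat replicates 1 and 2, and within that slide 71 of 77 genes fell and 1 rose in Mat, with a median of -1.99. LN111 and LN511 lay with Mat replicate 3 on the other slide. With the slide as a block, 70 fell on LN111 and 69 on LN511, with medians of -2.06 and -1.95, and 0 rose. The shares of all genes called within the slide and with the block are not given here.

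**Figure D1:**
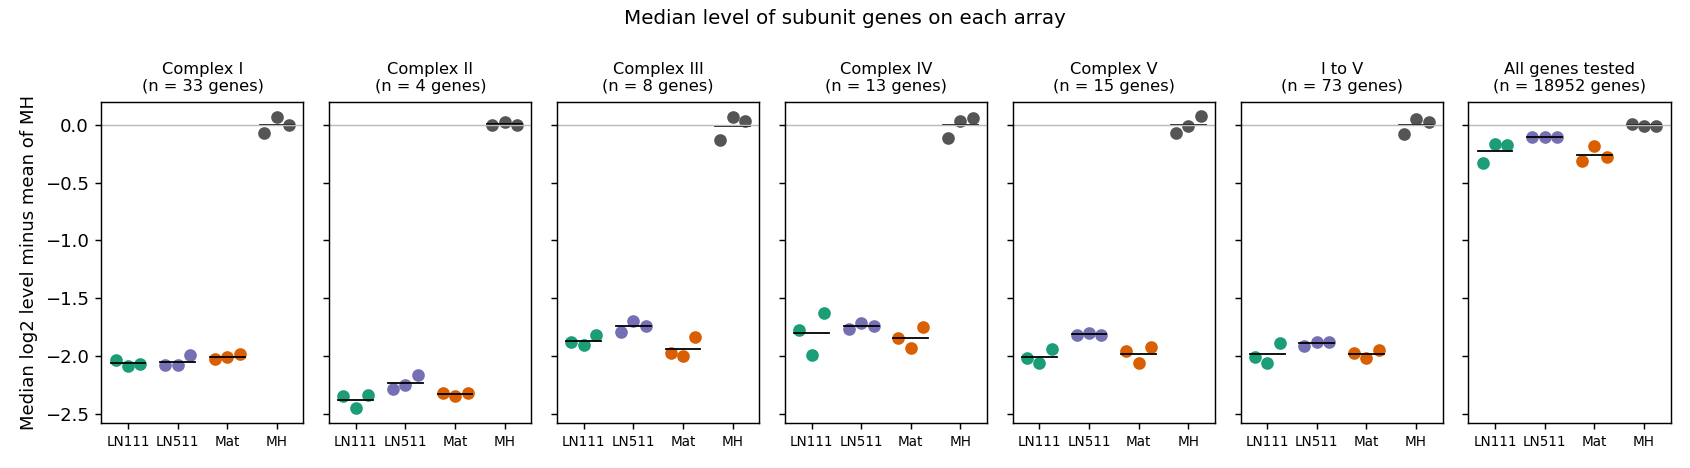
Median log2 level on each array, relative to the mean of MH, of the subunit genes of each complex, of all 73 subunit genes tested and of all 18952 genes tested. Each point is 1 array, the bars are group means, and the groups run LN111, LN511, Mat and MH. The medians of all 73 subunit genes lie between -2.06 and -1.87 on the 9 cultured arrays and between -0.08 and 0.05 in MH, while those of all genes lie between -0.33 and -0.11 on the cultured arrays.

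The subunit genes of all 5 complexes were lower by median. The median log2 differences were -2.03 for complex I, -2.35 for complex II, -1.80 for complex III, -1.82 for complex IV and -1.95 for complex V. On single arrays the median of complex I ran from -2.09 to -1.98 over the 9 cultured arrays, relative to the mean of MH. That of complex II ran from -2.45 to -2.16, that of complex III from -2.0 to -1.70, that of complex IV from -1.99 to -1.63, and that of complex V from -2.06 to -1.80. All 9 cultured arrays were thus lower for complex II than for any other complex, but complex II has only 4 genes and the differences between complexes were not tested. With quantile scaling the medians of complexes I to V were -1.07, -1.40, -0.73, -0.80 and -0.85, in the same order of size. With normexp background correction complex IV (-1.60) lay nearer to 0 than complex III (-1.71).

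Some promoters of these genes held short motifs of known factors, in shares that are given beside those of all promoters without a test. A promoter window from 250 bases before to 50 bases after the start of transcription was found for 69 of the 80 genes in the RefSeq table for GRCr8. Both strands were searched for the core of NRF1 sites (CGCANGCG; CGCATGCG as the stricter form, a subset of it), the core of ETS-family sites, which the factor GABP binds (CCGGAAG), and the core of YY1 sites (AAGATGG). NRF1 and GABP are known as activators of respiratory chain genes in mammals. The looser NRF1 core lay in 33.3% of the subunit promoters, against 7.6% of all 33469 promoters in the table and 9.89% of the 21851 of protein-coding genes, and the stricter core in 10.1%, against 1.66% and 2.11%. The ETS core lay in 26.1%, against 8.75% and 10.7%, and the YY1 core in 24.6%, against 7.01% and 7.29%. Any of the 3 lay in 62.3% of the subunit promoters, against 20.5% and 24.2%. By complex, it was 18 of 30 for complex I, 4 of 4 for complex II, 5 of 6 for complex III, 6 of 14 for complex IV and 10 of 14 for complex V. None of the 3 lay in 26 of the 69 promoters, among them those of Cox7b and Atp5mc1, which fell.

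The promoters of Ndufa11, Sdha, Uqcrc1, Cox8a and Atp5me, which fell, show what the motifs look like, and those of Cox7b, which fell, and Cox6a2, which rose, show windows without them. All were chosen after their motifs were seen, so they say nothing about a link between motif and direction. Each is printed 5′ to 3′ on the strand of its gene, from 250 bases before to 30 bases after the start, with every match in that stretch, on either strand, in capitals. The windows are Ndufa11 (chr9:1637364-1637643, plus strand), Sdha (chr1:30764303-30764582, plus strand), Uqcrc1 (chr8:118467973-118468252, plus strand), Cox8a (chr1:213833594-213833873, minus strand), Atp5me (chr14:1464610-1464889, plus strand), Cox7b (chrX:75148786-75149065, plus strand) and Cox6a2 (chr1:192219687-192219966, minus strand), all on GRCr8.
Ndufa11: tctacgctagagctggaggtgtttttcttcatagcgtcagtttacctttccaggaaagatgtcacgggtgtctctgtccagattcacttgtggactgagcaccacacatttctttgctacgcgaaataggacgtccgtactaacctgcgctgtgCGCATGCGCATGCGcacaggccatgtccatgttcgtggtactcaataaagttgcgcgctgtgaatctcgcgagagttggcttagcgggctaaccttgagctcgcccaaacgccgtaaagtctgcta
Sdha: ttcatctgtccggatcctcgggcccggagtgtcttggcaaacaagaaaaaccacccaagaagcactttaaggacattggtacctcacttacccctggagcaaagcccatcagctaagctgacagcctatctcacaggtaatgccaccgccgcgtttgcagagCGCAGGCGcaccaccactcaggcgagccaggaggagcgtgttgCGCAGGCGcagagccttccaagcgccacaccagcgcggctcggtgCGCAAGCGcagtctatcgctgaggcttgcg
Uqcrc1: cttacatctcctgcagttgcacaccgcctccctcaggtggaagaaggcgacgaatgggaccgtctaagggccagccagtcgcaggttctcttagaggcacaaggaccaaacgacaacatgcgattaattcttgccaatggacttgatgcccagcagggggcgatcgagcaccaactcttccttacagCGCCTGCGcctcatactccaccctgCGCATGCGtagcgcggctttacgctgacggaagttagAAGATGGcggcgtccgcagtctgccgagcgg
Cox8a: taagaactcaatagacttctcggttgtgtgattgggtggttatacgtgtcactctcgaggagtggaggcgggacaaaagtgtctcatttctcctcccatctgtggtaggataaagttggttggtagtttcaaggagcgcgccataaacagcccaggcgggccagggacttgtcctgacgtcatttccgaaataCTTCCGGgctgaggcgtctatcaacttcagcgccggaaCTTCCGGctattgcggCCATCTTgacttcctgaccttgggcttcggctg
Atp5me: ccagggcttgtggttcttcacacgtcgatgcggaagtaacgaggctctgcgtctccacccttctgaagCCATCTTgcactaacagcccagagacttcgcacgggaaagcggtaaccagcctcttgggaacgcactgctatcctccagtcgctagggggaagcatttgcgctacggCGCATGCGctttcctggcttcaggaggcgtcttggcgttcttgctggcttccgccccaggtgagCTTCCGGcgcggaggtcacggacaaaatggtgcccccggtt
Cox7b: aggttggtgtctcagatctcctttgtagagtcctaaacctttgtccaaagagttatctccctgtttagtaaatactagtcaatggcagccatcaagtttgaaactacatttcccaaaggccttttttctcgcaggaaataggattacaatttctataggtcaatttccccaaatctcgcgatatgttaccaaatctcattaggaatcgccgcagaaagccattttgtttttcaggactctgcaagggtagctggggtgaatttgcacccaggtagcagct
Cox6a2: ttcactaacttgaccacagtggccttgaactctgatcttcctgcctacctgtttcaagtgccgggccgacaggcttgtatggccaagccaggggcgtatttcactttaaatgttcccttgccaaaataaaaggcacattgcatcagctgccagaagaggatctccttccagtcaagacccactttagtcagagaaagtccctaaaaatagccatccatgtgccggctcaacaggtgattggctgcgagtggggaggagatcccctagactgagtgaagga
Ndufa11 holds overlapping copies of the stricter NRF1 core, Sdha only the looser form, and Cox8a the ETS core with the YY1 core close to the start. Uqcrc1 and Atp5me hold NRF1 and YY1 cores, and Atp5me also the ETS core. Cox7b and Cox6a2 hold none of these letters, which says nothing about binding of the factors.

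Complex I fell in 31 of 33 genes tested. Its 7 core subunits, which include the carriers of the flavin and the iron-sulphur clusters, all fell, with a median of -2.19 and a range of -2.83 to -2.13. Of 26 accessory subunits, which surround the core, 24 fell, with a median of -1.97. Ndufs7, a core subunit with an iron-sulphur cluster near the coenzyme Q site, had log2 levels of 0.58, 0.53 and -0.11 on LN111, 0.36, 0.41 and 0.37 on LN511 and 0.47, 0.47 and 0.45 on Mat, against 3.20, 3.33 and 3.14 in MH. All cultured arrays lay far below MH, with LN111 replicate 3 the lowest. The difference was -2.83 ± 0.14 (SE, adjusted p = 5.1e-08).

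Ndufa11, an accessory subunit of the membrane arm, had log2 levels of -0.18 to 0.44 on the cultured arrays, against 2.79 to 2.96 in MH. Its difference was -2.73 ± 0.15 (SE, adjusted p = 7.37e-08). Ndufa6, an accessory subunit that binds the mitochondrial acyl carrier protein, stood at 2.53 to 3.48 on the cultured arrays, against 5.76 to 6.0 in MH, a difference of -2.61 ± 0.15 (SE, adjusted p = 1.3e-07). These were the 3 largest falls of complex I. At the other end, Ndufa10 stood at -5.41 to -4.19 on the cultured arrays, against -4.40 to -4.08 in MH, a difference of -0.50 ± 0.23 (SE, adjusted p = 0.0694), and Ndufc1 at -5.54 to -4.51 on the cultured arrays, against -5.64 to -3.92 in MH, a difference of -0.30 ± 0.29 (SE, adjusted p = 0.368). The cultured range overlapped MH in each, and Ndufc1 was well above background on 2 of 3 MH arrays. Ndufc1 depended on single MH arrays, with 0.13 (adjusted p = 0.644) without MH replicate 2 and -0.73 (adjusted p = 0.017) without MH replicate 3. With normexp background correction both genes were called lower, and with no scaling both differences were positive and not called. The related gene Ndufa10l1 stood at 1.83 to 2.22 on the cultured arrays, against 4.07 to 4.25 in MH, and fell by 2.15 on the log2 scale (SE 0.09, adjusted p = 1.72e-08). The probe of Ndufs4 was not well above background on any MH or LN511 array and has no fold here. Ndufv3, a small accessory subunit, is read by 2 probes, which gave -2.52 and -1.27.

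**Figure D2:**
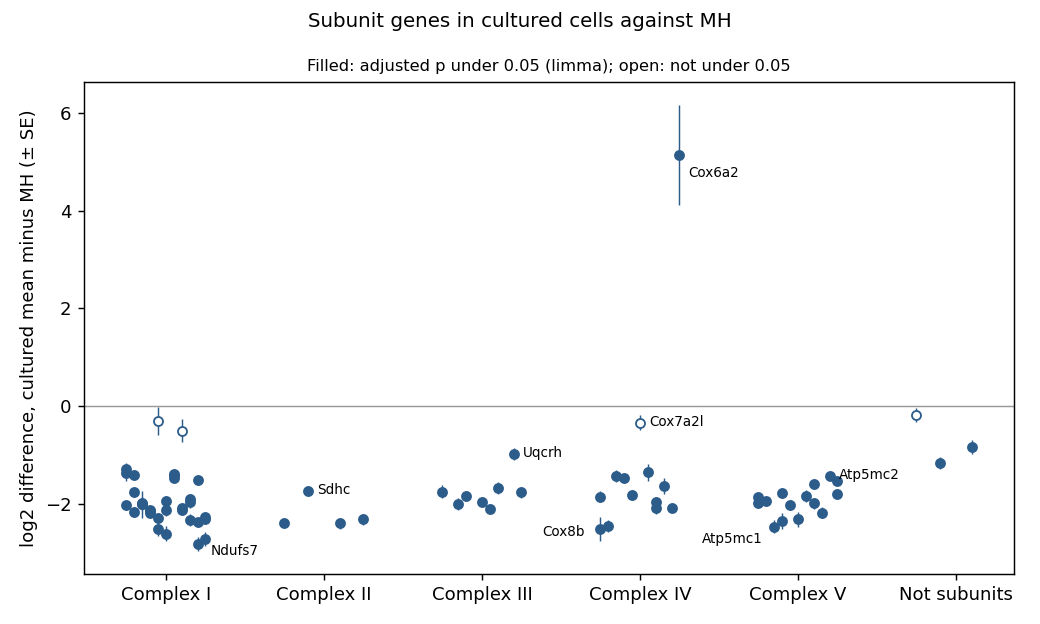
Log2 difference of each of the 76 genes tested, cultured mean minus MH, grouped by complex, with bars of 1 SE. Filled points had an adjusted p under 0.05 and open points did not. All points lie below 0 except Cox6a2, and the point of Cox8b is a fitted value against signals that were not above background in culture.

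All 4 genes of complex II, which also acts in the tricarboxylic acid cycle, fell. Sdhb, the iron-sulphur subunit, had log2 levels of 1.06, 1.11 and 0.64 on LN111, 1.34, 1.26 and 1.40 on LN511 and 1.16, 1.25 and 1.16 on Mat, against 3.50, 3.56 and 3.61 in MH. The 9 cultured arrays spanned less than 1 log2 unit and did not overlap MH. The difference was -2.40 ± 0.11 (SE, adjusted p = 3.29e-08). Sdha, the flavoprotein that oxidises succinate, stood at 1.21 to 1.59 on the cultured arrays, against 3.67 to 3.81 in MH, a difference of -2.39 ± 0.09 (SE, adjusted p = 8.34e-09). Of the 2 membrane anchors, Sdhd stood at 1.75 to 2.13 on the cultured arrays, against 4.18 to 4.49 in MH, a difference of -2.32 ± 0.11 (SE, adjusted p = 3.91e-08), and Sdhc at 0.79 to 1.21 on the cultured arrays, against 2.66 to 2.84 in MH, a difference of -1.74 ± 0.10 (SE, adjusted p = 1.59e-07). Sdhc had the smallest of the 4 differences, and whether it differed from the others was not tested.

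All 8 genes of complex III fell. Uqcrc2, a core protein of the complex, had log2 levels of 0.67, 0.60 and 0.42 on LN111, 0.73, 0.78 and 0.83 on LN511 and 0.82, 0.79 and 0.64 on Mat, against 2.66, 2.97 and 2.77 in MH. The difference was -2.10 ± 0.10 (SE, adjusted p = 4.52e-08). Uqcrfs1, the Rieske iron-sulphur protein that passes electrons towards cytochrome c, stood at 1.59 to 1.92 on the cultured arrays, against 3.54 to 4.04 in MH, a difference of -2.01 ± 0.12 (SE, adjusted p = 1.98e-07), and the small subunit Uqcrq at 4.73 to 5.15 on the cultured arrays, against 6.80 to 7.05 in MH, a difference of -1.96 ± 0.10 (SE, adjusted p = 5.63e-08). Uqcrh, the hinge protein, fell least, with a difference of -0.98 ± 0.12 (SE, adjusted p = 3.35e-05); it was singled out after its values were seen. That call was lost with quantile scaling (0.080, adjusted p = 0.475) and with no scaling (0.065, adjusted p = 0.781), where the sign turned. For each of these genes all cultured arrays lay below MH.

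Complex IV held Cox6a2, the only gene that rose with the 75th percentile. Of its 13 genes tested, 11 fell, Cox6a2 rose and Cox7a2l was not called. Cox7b, a small structural subunit, had log2 levels of 2.53, 2.19 and 2.37 on LN111, 2.64, 2.44 and 2.65 on LN511 and 2.50, 2.22 and 2.58 on Mat, against 4.77, 4.98 and 5.01 in MH. The 3 coatings overlapped each other and all lay below MH. The difference was -2.46 ± 0.12 (SE, adjusted p = 4.25e-08). Cox5b, a subunit on the matrix side that binds zinc, stood at 3.38 to 3.74 on the cultured arrays, against 5.44 to 5.77 in MH, a difference of -2.10 ± 0.12 (SE, adjusted p = 9.3e-08). Ndufa4, counted here with complex IV, where it is now placed, stood at 3.06 to 3.57 on the cultured arrays, against 5.18 to 5.40 in MH, a difference of -1.97 ± 0.11 (SE, adjusted p = 1.26e-07).

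Several subunits of complex IV come in pairs of isoforms, one in most tissues and one known from heart and skeletal muscle. Cox6a1, the isoform of liver and most tissues, stood at 5.30 to 5.74 on the cultured arrays, against 6.88 to 7.01 in MH, a difference of -1.48 ± 0.10 (SE, adjusted p = 5.07e-07). That call was lost with quantile scaling (-0.09, adjusted p = 0.465) and with no scaling (-0.44, adjusted p = 0.0822). Cox6a2, the muscle isoform, had log2 levels of -0.62, -3.03 and -2.28 on LN111, 0.47, -3.17 and -0.28 on LN511 and -0.09, -2.81 and -0.12 on Mat, against -4.10, -7.86 and -7.44 in MH. Replicate 2 was the lowest array on each coating, near -3, and MH replicate 1 lay far above the other MH arrays, yet no cultured array reached below an MH array. Its probe was well above background on all 9 cultured arrays and on 1 of 3 MH arrays. The difference was 5.14 ± 1.03 (SE, adjusted p = 0.00108), a fitted value against MH signals of which 1 of 3 was measured. A second probe, above background on 9 cultured arrays and on 0 of 3 MH arrays, was at least 24.8-fold higher in the cultured cells. With the slide as a block it was 4.11 and was not called (adjusted p = 0.0884).

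None of the other isoform genes rose, except Cox7a2l under other scalings. Cox7a2, the isoform of most tissues, stood at 3.11 to 3.32 on the cultured arrays, against 5.15 to 5.40 in MH, a difference of -2.08 ± 0.10 (SE, adjusted p = 2.9e-08). Cox7a2l, a related protein that joins complexes III and IV into supercomplexes, stood at 2.99 to 3.72 on the cultured arrays, against 3.57 to 3.92 in MH, a difference of -0.34 ± 0.15 (SE, adjusted p = 0.0581) that was positive under quantile scaling (0.66, adjusted p = 0.00215) and with no scaling (0.70, adjusted p = 0.016). Cox8a, the isoform of most tissues, stood at 3.84 to 4.23 on the cultured arrays, against 5.81 to 5.92 in MH, a difference of -1.82 ± 0.10 (SE, adjusted p = 1.25e-07). Cox8b, the muscle isoform, had log2 levels of -6.70, -7.01 and -6.63 on LN111, -7.90, -7.00 and -8.06 on LN511 and -7.85, -8.37 and -8.14 on Mat, against -4.99, -5.40 and -4.62 in MH. All cultured arrays lay below MH. It was not well above background on any cultured array, so it was at least 3.42-fold lower in the cultured cells, counted against the lowest signal well above background on each array. Its limma fit (adjusted p = 5.56e-06) used those dim cultured signals and is no separate support. Cox6b2, an isoform known from testis, stood at 0.31 to 1.44 on the cultured arrays, against 2.02 to 2.30 in MH, a difference of -1.36 ± 0.17 (SE, adjusted p = 4.51e-05) that was not called with no scaling (-0.32, adjusted p = 0.181). Cox7c is read by 2 probes of opposite sign, -1.64 and 1.06, the second above background on 1 of 3 MH arrays.

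**Figure D3:**
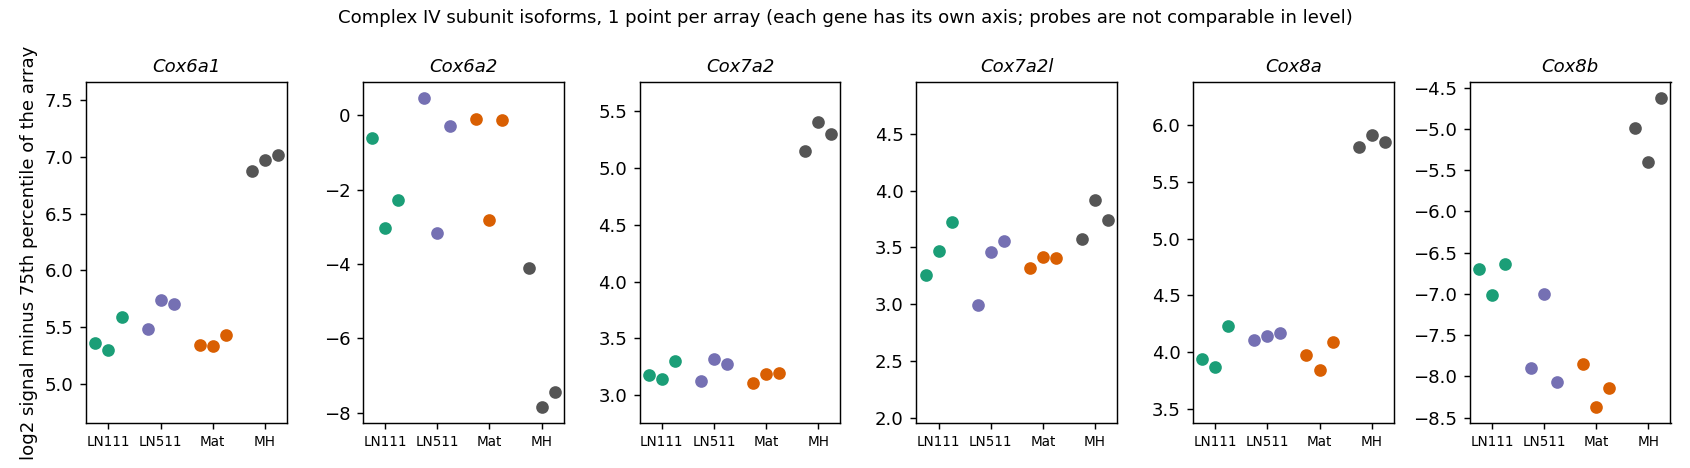
Log2 level, minus the 75th percentile of the array, of 6 isoform genes of complex IV, 1 point per array, with each gene on its own axis. Cox6a1, Cox7a2, Cox8a and Cox8b lie lower on the cultured arrays, Cox7a2l lies close to MH, and Cox6a2 lies between -3.17 and 0.47 on the cultured arrays and between -7.86 and -4.10 in MH.

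All 15 genes of complex V fell. The 5 genes of F1, the head that makes ATP with its central stalk, had a median of -1.99. The 10 genes of the membrane part and the peripheral stalk had a median of -1.91. Atp5f1c, the central stalk of F1, stood at 0.75 to 1.60 on the cultured arrays, against 3.68 to 3.94 in MH, a difference of -2.36 ± 0.16 (SE, adjusted p = 4.69e-07). In mammals 3 genes encode the same ring subunit, and all 3 fell. Atp5mc1 had log2 levels of 3.58, 3.16 and 3.42 on LN111, 3.57, 3.35 and 3.58 on LN511 and 3.58, 3.24 and 3.73 on Mat, against 5.96, 5.79 and 6.07 in MH. Again the coatings overlapped each other and not MH. The difference was -2.47 ± 0.14 (SE, adjusted p = 9.71e-08). Atp5mc3 stood at 0.03 to 0.51 on the cultured arrays, against 2.45 to 2.81 in MH, a difference of -2.32 ± 0.15 (SE, adjusted p = 3.01e-07). Atp5mc2 stood at 4.08 to 4.55 on the cultured arrays, against 5.68 to 5.80 in MH, a difference of -1.43 ± 0.09 (SE, adjusted p = 2.33e-07) that was not called with no scaling (-0.39, adjusted p = 0.12). Whether the 3 genes differed from each other was not tested, and a part of cross-hybridisation between such related genes was not tested either.

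No subunit gene was called between any 2 coatings in the fit with the 75th percentile and without a replicate block. On LN111 against Mat, 0 of 75 genes were called (0% of all 17930 genes), with a median of 0.00 and 73 genes within 0.5 log2 units of 0. On LN511 against Mat, 0 of 75 were called (8.2% of all genes, 7.05% higher and 1.15% lower), with a median of 0.04 and 74 within 0.5; with no scaling 71 fell there, where the median of all genes was -0.98. On LN111 against LN511, 0 of 75 were called (17.9% of all genes, 6.11% higher and 11.7% lower), with a median of -0.07 and 72 within 0.5. At an unadjusted p under 0.05 in limma there were 0 of 75 genes on LN111 against Mat (12.2% of all genes), 1 on LN511 against Mat (21.8%) and 6 on LN111 against LN511 (32.9%). The median SE of a difference was 0.14, so small differences could have gone undetected. The smallest p-values were those of Ndufc1 on LN511 against Mat, at 0.63 ± 0.18 (SE, adjusted p = 0.074), and of Atp5mc2 on LN111 against LN511, at -0.35 ± 0.11 (SE, adjusted p = 0.0669). With the replicate number as a block, Ndufc1, an accessory subunit of complex I, rose on LN511 against Mat (0.63, adjusted p = 0.0319). It was the 1 gene of 75 so called there. That block also called Ndufc1 on LN111 against LN511 (-0.53, adjusted p = 0.0337). With normexp background correction Ndufc1 was called on LN511 against Mat (0.75, adjusted p = 0.0323). With quantile scaling Ndufa12 was called on LN111 against LN511 (0.45, adjusted p = 0.0292). Without these changes, the next smallest p-values were those of Ndufc1 (-0.53) and Ndufa12 (0.37) on LN111 against LN511. Cox6c-ps1 (0.40) and Uqcrb (0.28) followed on LN511 against Mat. On LN111 against Mat the smallest p-values were those of Cox6b2 (0.44), Ndufa10l1 (-0.22) and Ndufa6 (-0.38). The comparisons of LN511 with Mat and with LN111 share the LN511 arrays.

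The mitochondrial chromosome was read by 12 probes, which were chosen by their coordinates in the array files (build rn4, per the file headers) after the data had been seen. The files name only 1 of them, as cytochrome c oxidase subunit III, one of the 3 core subunits of complex IV that mitochondria make themselves. Its probe, shown as the one the files name, lies at chrM:8715-8774 on the plus strand.
Cytochrome c oxidase subunit III probe: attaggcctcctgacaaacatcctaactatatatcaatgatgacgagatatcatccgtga
This probe had log2 levels of 4.48, 4.87 and 4.37 on LN111, 5.10, 5.36 and 5.22 on LN511 and 4.53, 4.57 and 4.59 on Mat, against 5.66, 5.50 and 5.55 in MH. The LN511 arrays lay above all LN111 and Mat arrays and below all MH arrays. The differences from MH were -1.0 on LN111 (adjusted p = 0.000163), -0.34 on LN511 (adjusted p = 0.0593) and -1.01 on Mat (adjusted p = 0.000148). On LN511 against Mat the difference was 0.66 (adjusted p = 0.0387), and on LN111 against LN511 it was -0.65 (adjusted p = 0.0251). Both calls were lost in several alternatives. On LN511 against Mat the difference was 0.45 with quantile scaling (adjusted p = 0.237), -0.43 with no scaling (adjusted p = 0.255) and 0.64 with the slide as a block (adjusted p = 0.323), and adjusted p was 0.0639 to 0.147 without any 1 LN511 or Mat array and 0.051 without LN111 replicate 1. On LN111 against LN511 it was -0.53 with quantile scaling (adjusted p = 0.105), -0.16 with no scaling (adjusted p = 0.78) and -0.65 within slide 2 (adjusted p = 0.0873). Without LN111 replicate 1 or 3 or LN511 replicate 2 or 3, adjusted p was 0.0638 to 0.0817 there.

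Over the 12 mitochondrial probes the median difference of the cultured cells from MH was -1.14, and 11 fell. The median was -1.32 on LN111, where 12 fell, -0.69 on LN511, where 10 fell, and -1.47 on Mat, where 12 fell. On LN511 against Mat 7 of 12 rose, with a median of 0.64, where 7.05% of all genes were called higher. On LN111 against LN511 8 of 12 fell, with a median of -0.56, where 11.7% of all genes were called lower, and on LN111 against Mat 0 were called. All 3 LN511 arrays lay above all 3 Mat arrays for 12 of 12 probes, as for 24.3% of all genes, and for 14 of the 75 genes chosen by name. These counts rested on single arrays and on the scaling. On LN511 against Mat 3, 2 and 1 probes were called without LN511 replicates 1, 2 and 3, 1, 1 and 2 without Mat replicates 1, 2 and 3, 1 with quantile scaling and 0 with the slide as a block. On LN111 against LN511, 2, 5 and 5 were called without LN111 replicates 1, 2 and 3, 3, 2 and 1 without LN511 replicates 1, 2 and 3, and 3 and 4 without Mat replicates 1 and 3. In the cultured cells against MH 4 fell and 3 rose with quantile scaling. The probes of 1 chromosome are not independent of each other.

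Lists of other mitochondrial genes had medians nearer to 0 than the subunit genes with the 75th percentile. Over all genes tested, 42% were called lower and 30.8% higher in this comparison of the cultured cells with MH. The counts of each list rested on the scaling. With no scaling, 78.1% of all called genes were higher. With quantile scaling the carriers (-1.29), coenzyme Q synthesis (-1.09) and the tricarboxylic acid cycle (-0.94) lay further from 0 than the subunit genes (-0.90). Of 7 subunits and related proteins whose names lie outside the pattern, 6 fell and 1 rose (3 and 1 with no scaling), with a median of -1.47. Ndufab1, the acyl carrier protein of complex I, fell by 2.21 on the log2 scale (adjusted p = 3.96e-08), and Cox4i1, the large nuclear subunit of complex IV, by 1.89 (adjusted p = 4.27e-08). The gene that rose was Atp5if1, the inhibitor of ATP synthase, counted here as a related protein, by 1.25 (adjusted p = 2.15e-06). Of 38 assembly factors, 34 fell and 2 rose (13 and 5 with no scaling), with a median of -1.08 (-0.04 with no scaling). Acad9 (-2.37, adjusted p = 1.48e-08) and Ndufaf2 (-2.33, adjusted p = 1.9e-08), which both help to build complex I, had the smallest p-values there.

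Of 26 genes of the mitochondrial ribosome and protein import, 24 fell and 1 rose (10 and 4 with no scaling), with a median of -1.55. Mrpl15 (-2.15) and Mrpl2 (-2.37), proteins of the large ribosomal subunit, led that list. Of 19 genes of the tricarboxylic acid cycle list, 16 fell and 2 rose (9 and 3 with no scaling), with a median of -1.59. That list also held genes outside the cycle itself, among them those of pyruvate dehydrogenase and Pc, pyruvate carboxylase. It was led by Idh3b, a subunit of isocitrate dehydrogenase (-2.37), and Pc (-4.88). Of 11 genes of coenzyme Q synthesis 9 fell and 0 rose (5 and 2 with no scaling), with a median of -1.55, led by Coq8a (-5.44) and Coq9 (-2.36). Of 16 genes tested from a list of mitochondrial carriers, uncouplers and Vdac genes, 13 fell and 2 rose (9 and 3 with no scaling), with a median of -1.87. Slc25a22, a glutamate carrier, fell by 2.43 on the log2 scale, while Slc25a4, the ADP/ATP carrier known from heart and muscle, rose by 6.04 (adjusted p = 3.25e-10).

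The regulators of mitochondrial biogenesis and the genes of glycolysis were more mixed. Over all genes tested, 72.8% were called in this comparison, 42% lower and 30.8% higher, so mixed calls were common. Of 17 regulators 10 fell and 3 rose, with a median of -0.51. With no scaling 3 fell and 8 rose, where 78.1% of all called genes were higher. Sirt3, a mitochondrial deacetylase, fell by 3.07 on the log2 scale, and Esrrg, a nuclear receptor, had a fitted difference of -5.97 from a probe above background on only 2 of 9 cultured arrays. Of the factors whose motifs were searched, Nrf1 had a log2 difference of -0.03 (adjusted p = 0.903), Gabpa, a subunit of GABP, one of -0.44 (adjusted p = 0.00313) and Yy1 one of -0.12 (adjusted p = 0.408); they were named after their values were seen. Of 22 genes from glucose to lactate 12 fell and 8 rose, with a median of -0.38. With quantile scaling 7 fell and 11 rose, where 56.1% of all called genes were higher. Hk1, a hexokinase, was at least 22.1-fold higher in the cultured cells, since its probe was not above background on any MH array. Its limma fit (adjusted p = 9.68e-10) ran against those dim MH signals and is no separate support. Pfkp, a phosphofructokinase, rose by 3.99 on the log2 scale (adjusted p = 1.45e-09).

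**Figure D4:**
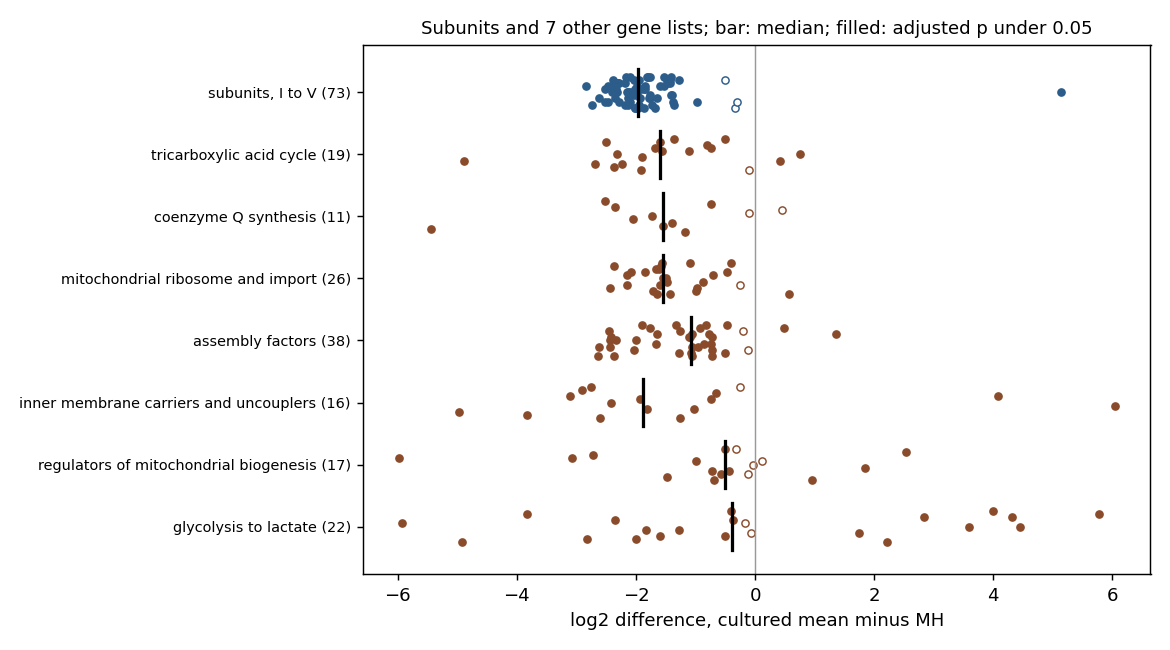
Log2 differences, cultured mean minus MH, of the genes tested in each list, with 1 point per gene and a bar at the median. The subunit genes have a median of -1.96, the other mitochondrial lists lie between -1.87 and -0.51, and glycolysis lies at -0.38 with points on both sides of 0.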

How the data were processed

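Total RNA was labelled with Cy3 and hybridised to 1-colour Agilent arrays, per the labels. The deposited scanner files hold a background-subtracted intensity per probe (the processed signal), made with Agilent Feature Extraction 10.7, per the submitters' processing notes. The deposited table of values holds the same intensities, within 0.0072 log2 units of the scanner files. Taken as log2, it served as an alternative that could hardly differ.

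Each intensity was taken as log2 minus the 75th percentile of its array. Control spots and outlier flags were left out (109 probes lost). A probe was kept where each array of some group had it well above background, and the brightest kept probe stood for its gene. All genes were fitted in limma 3.58.1 (R 4.3.3), with Benjamini-Hochberg adjustment at 0.05. Comparisons with MH used all 12 arrays and comparisons of coatings the 9 cultured arrays. The procedure was tested on simulated data. The number of arrays limits the precision.

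The members and lists were chosen with earlier results of these data known. Genes were named by rule: the 3 largest falls and rises per complex, the isoform sets and the Sdh genes, the 3 smallest p-values between coatings, and the 2 smallest per other list. Genes named outside it were chosen after their values were seen. Alternatives were the scaling, background correction, filters, floor, probe choice, slide, replicate number, value table and leaving out each array; those for the mitochondrial probes were added after seeing the data. Deviations of LN511 and Mat arrays with the same replicate number correlated by 0.54, 0.72 and 0.13. These numbers were therefore taken as pairs in 1 alternative, with the replicate number as a block. The main fits had no block and were unpaired. Between the other groups at least 1 pair was under 0.1. Yet LN111 and Mat correlated by 0.55, 0.71 and 0.09, and LN111 and LN511 by 0.47, 0.54 and 0.07, nearly the same. LN511 replicate 1 and Mat replicate 3 correlated by 0.535, so the numbers are no sure pairing.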

Additional observations from a re-analysis of the deposited data

How the results depend on the processing

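Of the 71 genes that fell in the cultured cells against MH, 56 were called lower in all 22 alternatives that tested them. Leaving out 1 array gave 72 to 73 calls against MH in each comparison, and 0 to 0 between coatings. With no scaling, Mat against MH had 18 calls (5 higher, 13 lower), where 86.8% of all called genes were higher and the median of all genes was 1.34. LN511 against Mat had 71 calls with no scaling, all lower, where the median of all genes was -0.98. Between coatings 1 gene was called on LN511 against Mat with normexp and with the replicate block, and 1 on LN111 against LN511 with quantile scaling and with the replicate block. The replicate block was an alternative only, and the main fits were unpaired. It was prompted by the correlations of LN511 with Mat, though deviations of LN111 correlated with those of the other coatings nearly as much. The replicate block gave 73 calls in the cultured cells against MH and called Ndufc1 on LN111 against LN511 (-0.53). Complex medians for I to V were -1.07, -1.40, -0.73, -0.80 and -0.85 with quantile scaling, -0.99, -1.31, -0.76, -0.78 and -0.91 with no scaling, and -1.98, -2.26, -1.71, -1.60 and -1.86 with normexp, and without a filter complex IV was at -1.56. The mitochondrial probes called in the cultured cells against MH were 7 with quantile scaling and 3 with no scaling, and 11 to 12 with 1 array left out. On LN511 against Mat they were 1 with quantile scaling, 1 with no scaling, 3 without a filter, 0 with the slide block, 0 within slide 2, and 1 to 6 with 1 array left out. On LN111 against LN511 they were 2, 0 and 5 with quantile scaling, no scaling and normexp, 1 without a filter, 4 with the slide block, 1 within slide 2, 2 with only the groups compared, and 1 to 6 with 1 array left out; on LN111 against Mat they were 0 to 0. Signs turned for Cox7a2l in the cultured cells against MH (0.66 with quantile scaling, 0.70 with no scaling), for Uqcrh (0.080 and 0.065), for Ndufa10 and Ndufc1 with no scaling (0.54 and 0.74) and for Ndufc1 without MH replicate 2 (0.13). With no scaling they also turned for Cox6b2 on LN111 against Mat (-0.16), for Ndufc1 (-0.46), Cox6c-ps1 (-0.70) and Uqcrb (-0.81) on LN511 against Mat and for Atp5mc2 on LN111 against LN511 (0.15). The subunit III probe turned on LN511 against Mat with no scaling (-0.43) and in the cultured cells against MH with quantile scaling (0.42) and no scaling (0.26). The cause was not tested.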

Other observations

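LN111 replicate 3 had more outlier spots than the other arrays, 1126 against 350 to 499. It was the lowest cultured array by over 0.5 log2 units for 3 subunit genes. Ndufs6, an accessory subunit of complex I, stood at 0.58 there and at 2.08 on the next lowest cultured array. Atp5f1c stood at 0.75 there and at 1.49 on the next lowest, and Ndufa6 at 2.53 and 3.17.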
